A study of Mus musculus with 12 samples.

Results

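The genes described here are 10 genes of the endoplasmic reticulum (ER) folding machinery and of its stress response, measured in mouse aortic valve leaflets: Hspa5, Hsp90b1, Hyou1, Pdia4, Pdia6, Calr, Canx, Xbp1, Atf4 and Ddit3. They were taken by name out of 41709 genes in the deposited table, with earlier results of these data known. Of the 10 members, 9 were found under their gene name. Ddit3 was found by its identifier (ENSMUSG00000025408), because the table holds 2 entries for it; the second had 0 counts in every library. All 10 passed the filter on low counts, which kept 6296 genes.

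RNA was sequenced from whole leaflets that had been cut out of fixed, frozen sections by laser microdissection, in 4 genotype groups of 3 libraries each. All mice were 2 months old and of the C57BL/6J;129SvEv background. The labels give the genotypes as the codes DKO, SMKO, ECKO and CTRL and name neither the gene nor the Cre drivers; the gene is known from the study itself to be Efemp2, which encodes fibulin-4, an extracellular glycoprotein on which elastic fibres depend. It was removed from endothelial and smooth muscle cells together in DKO, from smooth muscle cells in SMKO and from endothelial cells in ECKO, and CTRL mice kept it. The libraries are called biological triplicates, and no animal is assigned to a library, so p-values measure the spread between these libraries.

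Proteins bound for secretion are threaded into the ER, where chaperones hold them, disulfide isomerases pair their cysteines and lectins retain their sugar-bearing forms until they are folded. When unfolded protein accumulates, ER membrane sensors start the unfolded protein response: IRE1 splices the Xbp1 mRNA, PERK raises the translation of Atf4, and ATF6 is cleaved to a transcription factor, and together they raise chaperone genes. Aortic valve leaflets hold interstitial cells that secrete collagens, proteoglycans and elastic fibre proteins, so the same chaperones also serve their routine secretion.

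The ER stress response element (ERSE), a CCAAT box that binds NF-Y followed at a fixed distance by a CCACG box bound by ATF6, is the textbook control element of this gene family, and its copies in the member promoters are shown because they divide the members into those with and without it. RefSeq promoters (build GRCm38.p6) were found for 9 of the 10 members, all but Hyou1, and the 250 bases before each start were searched on both strands for CCAAT followed, after any 9 bases, by CCACG. Of these 9 members, 5 held it, against 37 of 32851 promoters (0.113%). The matches and 10 bases on either side are given 5′ to 3′ on the gene's strand, with the match in capitals; a match that begins with CGTGG is the element on the opposite strand. The windows lie at chr2:34772015-34772053 on the plus strand (Hspa5), chr10:86705628-86705666 and chr10:86705523-86705561 on the minus strand (Hsp90b1), chr12:17266481-17266519 on the plus strand (Pdia6), chr8:84847065-84847103 on the minus strand (Calr) and chr11:50325790-50325828 on the minus strand (Canx).
Hspa5: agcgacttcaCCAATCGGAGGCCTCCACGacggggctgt
Hsp90b1, first: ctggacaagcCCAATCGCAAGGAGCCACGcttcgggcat
Hsp90b1, second: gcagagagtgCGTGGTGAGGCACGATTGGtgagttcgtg
Pdia6: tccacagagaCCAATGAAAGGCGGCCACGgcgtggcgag
Calr: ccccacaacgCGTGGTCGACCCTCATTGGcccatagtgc
Canx: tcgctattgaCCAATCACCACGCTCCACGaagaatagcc

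Each of the 5 members thus carried both boxes at the full spacing, and Hsp90b1 carried them on each strand. Single CCAAT boxes, which overlap the ERSE, were present in 8 of the 9 promoters, against 33.8% of all promoters, and CCACG was present in 6, against 28.3%. None of the 9 held the ERSE-II (ATTGG, any 1 base and CCACG, in 0.0304% of promoters), TGACGTGG (the core of the XBP1 element, in 0.563%) or TGATGNAA (the composite site of C/EBP and ATF proteins, in 3.45%). A match describes the letters in this window and is not evidence of binding.

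Library totals ran from 74827 counts in SMKO 3 to 615665 in ECKO 2, with a median of 321312. The mitochondrially encoded share of counts was largest in SMKO 3 (28.5%), CTRL 3 (26.7%) and SMKO 2 (24.1%), of which SMKO 3 and CTRL 3 were also the shallowest, and ranged from 10.5% to 20.98% elsewhere. Efemp2 had 0 counts in each DKO library, which allows up to 3.11 CPM over the pooled group (CPM are counts per 1000000 of a library's TMM-scaled total), 4, 0 and 0 counts in SMKO, 3, 15 and 8 in ECKO, and 58, 23 and 9 in CTRL. Scaled for depth, ECKO had 15.4, 21.9 and 18.4 CPM, all below CTRL at 84.5, 35.5 and 66.9 CPM. SMKO 1 had 6.81 CPM, and the 0 in SMKO 3, the shallowest library, allows up to 41.4 CPM. Interstitial markers were the most abundant of the cell type lists (the summed level of 10 genes was 20400.1 to 48137 CPM per library), and endothelial markers were detected in every library (15 genes, 1471 to 2471 CPM). Smooth muscle markers were low, at 241 to 442 CPM for 8 genes.

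All 10 members were detected in the valve, at widely different levels. On the length-corrected TPM scale of the authors, the mean level over the 12 libraries was highest for Calr (325 TPM) and Hsp90b1 (284), followed by Canx (179), Atf4 (128), Hspa5 (127), Pdia6 (105), Xbp1 (76.7), Ddit3 (43.6), Pdia4 (30.0) and Hyou1 (13.9). Calr and Hsp90b1 overlapped across libraries, as did Atf4 and Hspa5. The low end was counted thinly: Hyou1 had 0 to 39 counts per library and Ddit3 0 to 16, whereas Hsp90b1 had 24 to 314.

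No member differed between DKO and CTRL valves in edgeR's quasi-likelihood test at an adjusted p under 0.05, where 0.492% of the 6296 genes were called. The test adjusted p over all 6296 genes. An unadjusted p under 0.05 was reached by 1 member, Hspa5, beside 11.6% of all genes. The log2 fold change was above 0 for 8 of the 10 members, with a median of 0.38, against 51.5% of all genes and a median of 0.02. In these bulk samples, fewer cells of a type and less RNA per cell cannot be told apart.

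Hspa5 encodes BiP, the main HSP70 chaperone of the ER lumen and the protein that holds the stress sensors inactive. It stood at 435.8, 450.1 and 219.8 CPM in DKO 1, 2 and 3, against 255.0, 197.8 and 237.7 CPM in CTRL 1, 2 and 3. DKO 1 and DKO 2 lay above every other library of the series and DKO 3 lay within CTRL, so the groups overlapped. The means were 369 ± 129 CPM in DKO and 230.2 ± 29.3 CPM in CTRL (SD, n = 3 each), a log2 fold change of 0.69 ± 0.28 (SE) with a 95% interval of 0.12 to 1.26 (edgeR, adjusted p = 0.299).

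Hsp90b1 encodes GRP94, the ER form of HSP90. Its levels were 653.8, 615.4 and 410.5 CPM in DKO 1, 2 and 3, against 457.6, 438.9 and 564.6 CPM in CTRL 1, 2 and 3. The same 2 DKO libraries were the highest and DKO 3 was below all of CTRL, and the log2 fold change was 0.21 ± 0.28 (adjusted p = 0.843). Hyou1 encodes GRP170, the nucleotide exchange factor of BiP. It had 59.0, 63.7 and 49.8 CPM in DKO, against 56.8, 24.7 and 14.9 CPM in CTRL, where CTRL 1 lay among the DKO libraries and CTRL 3 rested on 2 counts. Its log2 fold change was 0.64 ± 0.38 (interval -0.13 to 1.41, adjusted p = 0.536), which was 1.36 without CTRL 1 and 0.34 without CTRL 2.

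Both disulfide isomerases overlapped between DKO and CTRL. Pdia6, which encodes the isomerase P5 and works with BiP, had 208.8, 195.2 and 132.7 CPM in DKO, against 144.3, 137.6 and 133.7 CPM in CTRL. DKO 3 was just below the 3 CTRL libraries and the other two DKO libraries were well above them, for a log2 fold change of 0.37 ± 0.24 (adjusted p = 0.607). Pdia4, which encodes ERp72, had 63.6, 69.7 and 24.9 CPM in DKO, against 48.1, 46.4 and 37.1 CPM in CTRL. DKO 3 was again the lowest of the 6, and the other two DKO libraries lay above all of CTRL, for a log2 fold change of 0.27 ± 0.41 (adjusted p = 0.870).

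Of the lectins, Calr was the member whose DKO and CTRL libraries did not overlap in scaled counts. Calr encodes calreticulin, the soluble lectin that retains newly made glycoproteins, and had 513.0, 523.8 and 468.6 CPM in DKO, against 368.7, 347.7 and 445.8 CPM in CTRL. It was higher in all 3 DKO libraries, with a log2 fold change of 0.39 ± 0.25 (interval -0.12 to 0.89, adjusted p = 0.591), and 17.8% of all genes had DKO and CTRL groups that did not overlap in either direction. On the authors' TPM scale, which is not corrected for library composition, the Calr groups overlapped, at 338, 507 and 319 TPM in DKO, against 395, 353 and 248 TPM in CTRL. Canx encodes calnexin, the membrane-bound counterpart of calreticulin. It had 540.3, 456.0 and 360.8 CPM in DKO, against 510.1, 477.6 and 579.5 CPM in CTRL, overlapping ranges with a log2 fold change of -0.20 ± 0.26 (adjusted p = 0.846).

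The transcription factors overlapped between DKO and CTRL in every case. Xbp1, whose spliced form raises chaperone and ER-associated degradation genes, had 104.4, 137.4 and 107.8 CPM in DKO, against 154.5, 115.9 and 118.9 CPM in CTRL (log2 fold change -0.15 ± 0.26, adjusted p = 0.887). Gene counts do not separate its spliced and unspliced forms. Atf4, which acts downstream of PERK and of amino acid shortage, had 168.0, 159.3 and 157.6 CPM in DKO, against 118.0, 86.6 and 185.7 CPM in CTRL (0.43 ± 0.35, adjusted p = 0.694). The 3 DKO libraries lay close together, inside a wide CTRL range set by CTRL 3. Ddit3, which encodes CHOP, the factor tied to cell death under lasting stress, had 45.4, 29.9 and 16.6 CPM in DKO, against 21.9, 17.0 and 14.9 CPM in CTRL (0.67 ± 0.55, adjusted p = 0.693), from 2 to 15 counts per library.

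**Figure D1:**
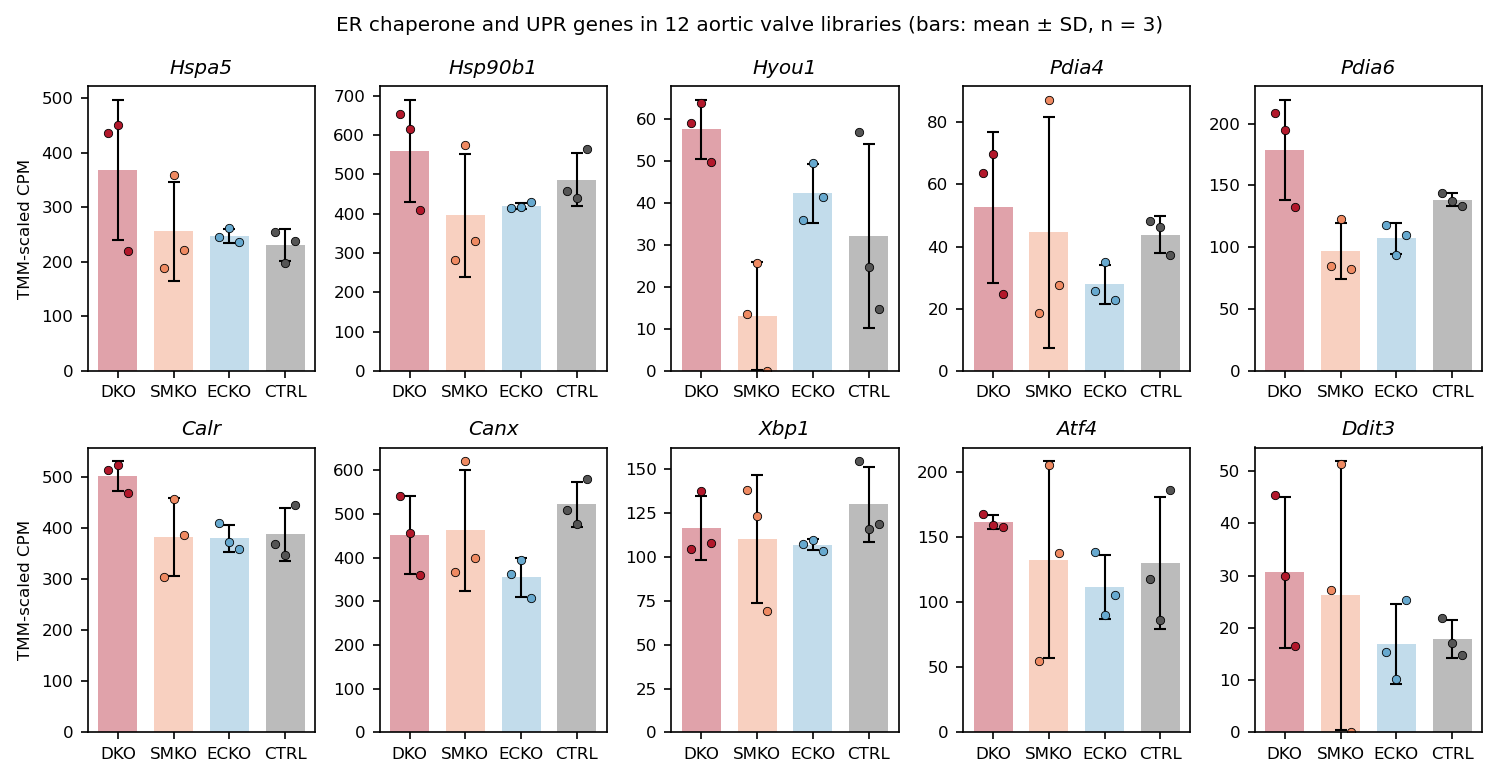
Level of each of the 10 genes in TMM-scaled CPM (vertical axes, from 0) in the DKO, SMKO, ECKO and CTRL groups; bars are means, whiskers are SD over 3 libraries and points are libraries 1 to 3 from left to right. Hspa5 is highest in DKO 1 and DKO 2 (435.8 and 450.1 CPM), Hyou1 has its lowest mean in SMKO, and Pdia6 is lower in all SMKO and ECKO libraries than in any CTRL library on this scale, though not in TPM.

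In SMKO valves no member was called against CTRL, where 0% of genes were called. An unadjusted p under 0.05 was reached by 1 member, beside 5.48% of genes. The log2 fold change was above 0 for 2 of 10 members (50.4% of all genes), with a median of -0.14. That median rested on single libraries, since it was -0.58 without SMKO 2 and 0.07 without SMKO 1.

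Hyou1 was the member that passed the unadjusted threshold in SMKO. It had 13.6, 25.7 and 0 CPM in SMKO 1, 2 and 3 (8, 5 and 0 counts), against 56.8, 24.7 and 14.9 CPM in CTRL 1, 2 and 3 (39, 16 and 2 counts). SMKO 2 lay above CTRL 2 and CTRL 3, and the 0 in SMKO 3, the shallowest library, allows up to 41.4 CPM, so the order of the groups is not set by these counts. The log2 fold change was -1.26 ± 0.51 (edgeR, adjusted p = 0.874), and -0.53 without CTRL 1. Pdia6 had 85.1, 123.2 and 82.8 CPM in SMKO, all below the 3 CTRL libraries, a separation found in 10.5% of genes in either direction. Its log2 fold change was -0.52 ± 0.27 (interval -1.08 to 0.03, adjusted p = 0.886).

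In scaled counts the other members spread widely within SMKO, with SMKO 2 mostly the highest. SMKO 2 had the lowest TMM factor of the 12 libraries (0.739), which raises its CPM. Hspa5 had 188.8, 359.5 and 220.8 CPM in SMKO 1, 2 and 3 and Hsp90b1 had 282.4, 575.1 and 331.3 CPM, and in both genes SMKO 2 lay near the DKO libraries. In TPM the SMKO libraries lay close together in Hspa5 (100, 98.4 and 86.6 TPM). For Hsp90b1 they had 200, 210 and 173 TPM, all below CTRL (379, 344 and 242 TPM). That separation was not present in scaled counts. The share of all genes so separated in TPM was not computed. Pdia4 had 18.7, 87.3 and 27.6 CPM, Canx 367.5, 621.4 and 400.3 CPM, and Atf4 54.4, 205.4 and 138.0 CPM, with SMKO 2 above every CTRL library in each. Calr, at 304.5, 457.0 and 386.5 CPM, differed from CTRL by -0.02 ± 0.26, and Xbp1, at 137.8, 123.2 and 69.0 CPM, by -0.12 ± 0.27 on the log2 scale. Ddit3 had 27.2, 51.4 and 0 CPM, for a log2 fold change of 0.70 ± 0.57 (adjusted p = 0.941).

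In ECKO valves no member was called against CTRL either, where again 0% of genes were called, and 1 member, Canx, reached an unadjusted p under 0.05, beside 4.34% of genes. The log2 fold change was above 0 for 2 of 10 members (49.5% of genes), with a median of -0.20, which ran from -0.34 without CTRL 2 to -0.10 without ECKO 2. In scaled counts the ECKO libraries lay close together for 2 members: Hspa5 had 245.8, 261.2 and 236.5 CPM (248 ± 12.5, SD, n = 3) and Hsp90b1 414.7, 417.3 and 429.3 CPM. On that scale Hspa5 overlapped CTRL, at 0.11 ± 0.28 in log2, while all 3 ECKO libraries of Hsp90b1 lay below CTRL, at -0.20 ± 0.28. In TPM the ECKO libraries lay farther apart, at 99.0, 141 and 135 TPM for Hspa5 and 222, 299 and 326 TPM for Hsp90b1.

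Canx had 363.5, 395.4 and 307.6 CPM in ECKO, against 510.1, 477.6 and 579.5 CPM in CTRL. All ECKO libraries were below all CTRL libraries, and the log2 fold change was -0.55 ± 0.26 (interval -1.09 to -0.01, adjusted p = 0.998). Pdia6 (117.8, 93.4 and 110.2 CPM), Pdia4 (25.6, 35.0 and 23.0 CPM) and Xbp1 (107.5, 109.4 and 103.3 CPM) also lay below CTRL in every ECKO library. With Hsp90b1 and Canx, 5 of 10 members had ECKO libraries that did not overlap CTRL, beside 11.8% of all genes in either direction. This held in scaled counts; in TPM all 5 overlapped, CTRL 3 lying below at least 1 ECKO library in each (for Canx, 187 TPM in ECKO 2 and 164 TPM in CTRL 3). None of the 5 was called, with adjusted p at 0.998 in each. Calr had 409.6, 373.5 and 358.1 CPM, Atf4 138.2, 90.5 and 105.6 CPM, Hyou1 35.8, 49.6 and 41.3 CPM and Ddit3 15.4, 10.2 and 25.3 CPM, all within the range of CTRL or overlapping it.

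**Figure D2:**
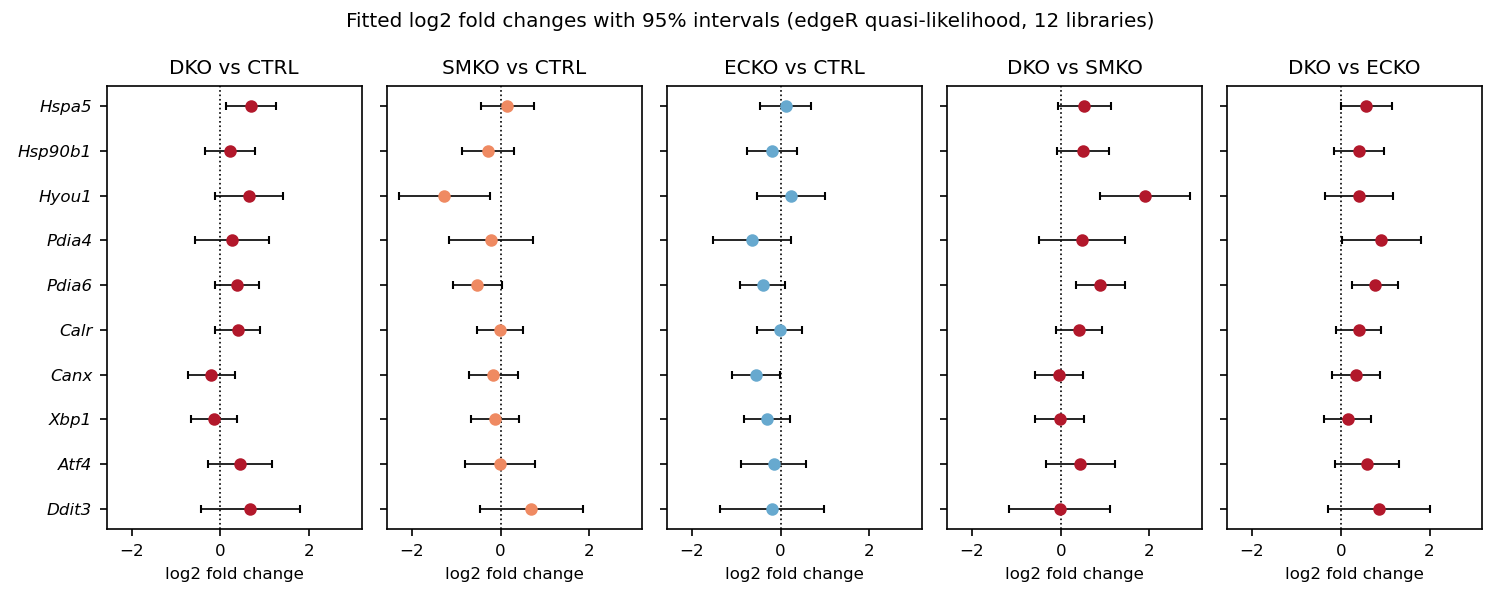
Fitted log2 fold change (horizontal axis) of each of the 10 genes in 5 pairs of groups, with 95% intervals from the model of all 12 libraries. Most intervals span 0; the intervals of Hyou1 (1.91) and Pdia6 (0.89) in DKO against SMKO, and of Pdia6 (0.77) in DKO against ECKO, lie farthest from it, and none of the 10 genes was called at an adjusted p under 0.05.

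DKO valves were also set against each single deletion, to see what the second deletion added. Against SMKO no member was called, where 0% of genes were called, and an unadjusted p under 0.05 was reached by 2, Hyou1 and Pdia6, beside 6.29% of genes. Hyou1 had 59.0, 63.7 and 49.8 CPM in DKO, against 13.6, 25.7 and 0 CPM in SMKO, without overlap. The log2 fold change was 1.91 ± 0.50 (interval 0.89 to 2.92, edgeR, adjusted p = 0.300), which ranked 11 of 6296 genes by p. It passed without SMKO 2 (2.25, adjusted p = 0.0287) and without the filter on low counts (1.92, adjusted p = 0.0468), and under no other setting tried.

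Pdia6 had 179 ± 40.6 CPM in DKO and 97.0 ± 22.7 CPM in SMKO (SD, n = 3 each), also without overlap, for a log2 fold change of 0.89 ± 0.27 (edgeR, adjusted p = 0.463). Calr was likewise higher in all 3 DKO libraries than in any SMKO library, at 0.40 ± 0.26 (adjusted p = 0.887). These 3 separations of DKO from SMKO were also present in TPM. Hsp90b1 and Atf4 were also higher in every DKO library than in any SMKO library in TPM, but overlapped in scaled counts. In scaled counts, groups without overlap in either direction made up 9.55% of all genes here, and the share in TPM was not computed. The log2 fold change was above 0 for 7 of 10 members (52.2% of genes), with a median of 0.46, which was 0.89 without SMKO 2 and 0.21 without SMKO 1. Canx, Xbp1 and Ddit3 lay near 0, at -0.04 ± 0.27, -0.03 ± 0.27 and -0.02 ± 0.56, and the interval of Ddit3, from -1.16 to 1.12, leaves both directions possible.

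Against ECKO the log2 fold change was above 0 for all 10 members, beside 51.8% of genes, with a median of 0.50. No member was called, where 0.572% of genes were, and 3 reached an unadjusted p under 0.05, beside 10.8% of genes. These were Pdia6 (0.77 ± 0.25, interval 0.26 to 1.28, edgeR, adjusted p = 0.191), Pdia4 (0.92 ± 0.44, adjusted p = 0.446) and Hspa5 (0.58 ± 0.28, adjusted p = 0.446). Pdia6, Calr, Hyou1 and Atf4 were higher in each DKO library than in any ECKO library, and 18.9% of genes did not overlap in either direction. For Hyou1 (0.41 ± 0.37) the nearest libraries were DKO 3, at 49.76 CPM from 12 counts, and ECKO 2, at 49.61 CPM from 34 counts. Their order is not set by these counts. In TPM, of these 4 members only Atf4 kept its groups apart. In Pdia4 and Hspa5 DKO 1 and DKO 2 lay above all of ECKO, and DKO 3, at 24.9 and 219.8 CPM, did not. Markers of other cells were called in the same comparison: the endothelial genes Prox1 (-2.48 ± 0.53, adjusted p = 0.0336) and Kdr (-1.76 ± 0.40, adjusted p = 0.0399) were lower in DKO, with 11 of 13 tested endothelial markers below 0 (median -0.40). The melanocyte gene Dct was higher (2.57 ± 0.49, adjusted p = 0.0399), with all 5 tested melanocyte markers above 0 (median 3.36). Their part in the levels of the members was not tested, and leaving out single libraries of DKO or ECKO ended each of these calls (Prox1 without DKO 1, DKO 2, ECKO 2 or ECKO 3, Kdr and Dct without any one of the 6; adjusted p up to 0.237, 0.231 and 0.229), with log2 fold changes of -2.90 to -2.04, -2.09 to -1.63 and 2.15 to 2.88 over all alternatives.

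The 6 libraries with smooth muscle deletion (DKO and SMKO) were compared with the 6 without it (ECKO and CTRL). No member was called, beside 0.206% of genes, and none passed an unadjusted p under 0.05, beside 10.5%. The log2 difference was above 0 for 9 of 10 members (50.3% of genes), with a median of 0.16, which was -0.03, with 5 of 10 above 0, without SMKO 2, and 0.24 without SMKO 1; it was 0.09 by limma-voom and 0.10 with depth as a covariate. The nearest to the threshold were Ddit3 (0.78 ± 0.40, adjusted p = 0.501) and Hspa5 (0.37 ± 0.20, adjusted p = 0.547). Hyou1 was the member below 0, at -0.43 ± 0.32.

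Whether combined deletion departed from the sum of the single ones was tested as the interaction DKO - SMKO - ECKO + CTRL. It was above 0 for all 10 members (52.1% of genes), with a median of 0.55 on the log2 scale; none was called, beside 0.0318% of genes, and 2 passed an unadjusted p under 0.05, beside 6.23%. The median was 0.95 without SMKO 2 and 0.34 without SMKO 1. Pdia6 had an interaction of 1.29 ± 0.37 (edgeR, adjusted p = 0.611) and Hyou1 one of 1.67 ± 0.63 (adjusted p = 0.638). In Pdia6 every SMKO and every ECKO library lay below CTRL, while DKO averaged above it, at 179 ± 40.6 CPM in DKO and 139 ± 5.34 CPM in CTRL. Separation from CTRL in either direction was found in 10.5% of all genes for SMKO and in 11.8% for ECKO. In TPM, Pdia6 had 138, 190 and 90.6 TPM in DKO, 78.3, 58.3 and 56.2 TPM in SMKO, 82.0, 86.9 and 109 TPM in ECKO, and 155, 140 and 74.6 TPM in CTRL, and CTRL 3 lay below SMKO 1 and all of ECKO, as DKO 3 did below ECKO 3. In TPM the single deletions were thus not separated from CTRL, nor DKO from ECKO; DKO remained above SMKO in every library. In the F test over the 4 groups no member was called either (0.302% of genes) and 2 reached an unadjusted p under 0.05 (8.99% of genes), with the smallest adjusted p for Hyou1 (0.279) and Pdia6 (0.300).

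Counts of Pdia6 and Ddit3 carry a further limit. In the GENCODE vM21 annotation, Pdia6 overlaps Atp6v1c2 on the opposite strand, and Ddit3 overlaps Mars and Gm4189 on the opposite strand and the second Ddit3 entry on its own. The library kit does not keep strand, so reads of these neighbours cannot be told apart. Hsp90b1 overlaps the pseudogene 1810014B01Rik on the opposite strand, and Gm15344 and Gm25745 on its own, and Pdia4 overlaps Mir704; the other 6 members overlap no gene.

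The members were then set beside the secretory matrix load, the summed level of 65 genes for secreted matrix proteins, which was 138749, 106876 and 124784 CPM in DKO 1, 2 and 3, 71828, 193411 and 61766 CPM in SMKO, 100387, 78486 and 73621 CPM in ECKO, and 72027, 74416 and 92906 CPM in CTRL. All 3 DKO libraries lay above all of CTRL, and SMKO 2 was the highest of the 12. The mean in DKO was 1.55 times that in CTRL, and 1.35 times without Sparc and Mgp, a collagen-binding and a mineralization-inhibiting protein that hold a large share of the sum. Within the list, 3 genes rose in DKO against CTRL in the same test, Eln (tropoelastin, log2 fold change 1.55 ± 0.29, adjusted p = 0.00971), Col4a1 (a basement membrane collagen chain, 1.39 ± 0.29, adjusted p = 0.0188) and Ltbp2 (a microfibril-associated protein, 1.38 ± 0.31, adjusted p = 0.0312), and 1 fell, Ogn (a small proteoglycan, -1.51 ± 0.34, adjusted p = 0.0312), of 60 tested, beside 0.492% of all genes called. These folds moved little over the 21 alternatives (1.39 to 1.68 for Eln, 1.28 to 1.48 for Col4a1, 1.26 to 1.54 for Ltbp2 and -1.64 to -1.42 for Ogn), while the calls were often lost: Eln was not called without CTRL 1, CTRL 2 or DKO 2 (adjusted p up to 0.123), Col4a1 without any one of the DKO or CTRL libraries (up to 0.162), Ltbp2 in 12 of 21 alternatives (up to 0.210) and Ogn in 9 (up to 0.203). Against ECKO, 3 matrix genes were also higher and 1 lower in DKO, beside 0.572% of all genes called: Eln (1.26 ± 0.29, adjusted p = 0.0399), Ccn2 (the matricellular protein CTGF, 1.59 ± 0.36, adjusted p = 0.0399), Col18a1 (a basement membrane collagen, 1.54 ± 0.36, adjusted p = 0.0467) and Ogn (-1.86 ± 0.33, adjusted p = 0.0136). Leaving out ECKO 2 ended all 4 of these calls (adjusted p up to 0.289), as did leaving out DKO 1, DKO 2 or ECKO 3. Over all alternatives their log2 fold changes ran from 1.09 to 1.41, 1.45 to 1.74, 1.44 to 1.73 and -1.98 to -1.74. In the smooth muscle average, Eln (0.98 ± 0.21, adjusted p = 0.0306) and Col4a1 (0.90 ± 0.20, adjusted p = 0.0484) were called, beside 0.206% of all genes, and lost their calls in 11 and 14 of 20 alternatives, with ranges of 0.70 to 1.13 and 0.61 to 1.05.

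The 10 members summed to 2480.5 ± 463 CPM in DKO, 1922 ± 619 CPM in SMKO, 1817 ± 68.9 CPM in ECKO and 2119 ± 222 CPM in CTRL (SD, n = 3 each). DKO 1 and DKO 2, at 2792 and 2700.4 CPM, were above all CTRL libraries (1890.2 to 2333 CPM), and DKO 3, at 1949 CPM, lay among them. For every 1000 counts of matrix genes, the members had 20.1, 25.3 and 15.6 counts in DKO, 20.6, 13.6 and 26.8 in SMKO, 18.7, 23.4 and 23.6 in ECKO, and 29.6, 25.4 and 25.1 in CTRL. The ratio averaged 20.3 ± 4.83 in DKO and 26.7 ± 2.54 in CTRL, with DKO 2 inside the CTRL range and SMKO 2, the library with the largest matrix load, at the lowest ratio. Without Sparc and Mgp the ratio was 28.4 ± 6.17 in DKO, 28.0 ± 6.05 in SMKO, 27.9 ± 3.61 in ECKO and 32.6 ± 2.50 in CTRL, and SMKO 2, at 24.0, was no longer the lowest (22.7 in DKO 3 and 23.7 in ECKO 1).

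**Figure D3:**
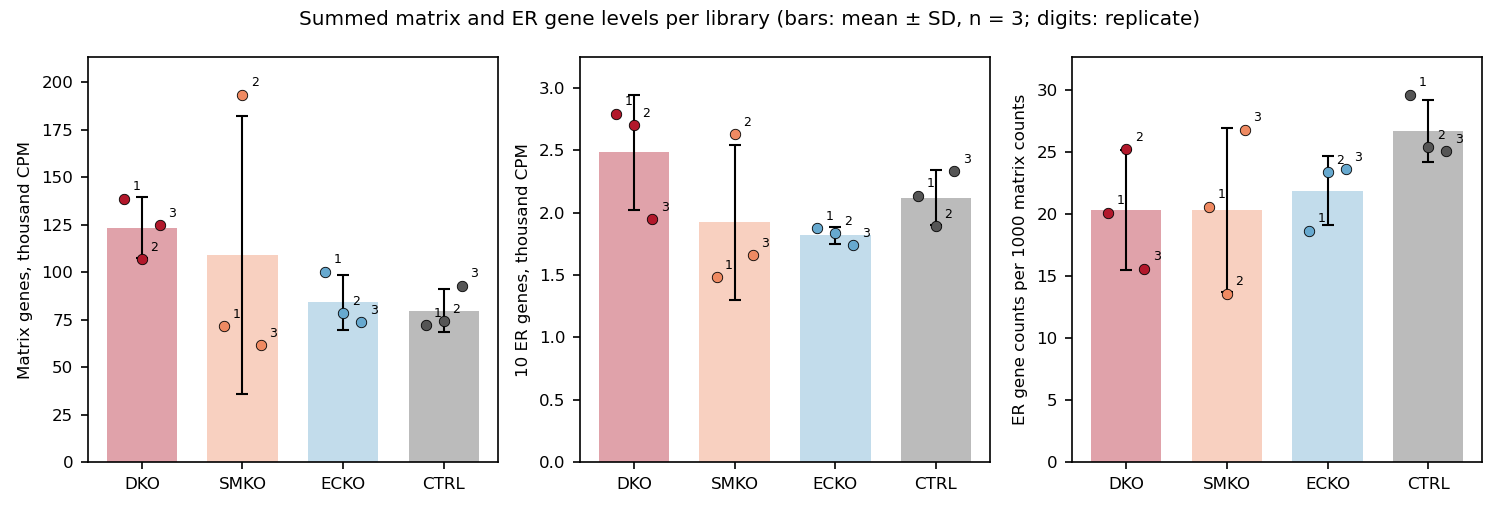
Summed level of the 65 matrix genes (left, CPM in units of 1000), of the 10 ER genes (middle, same unit) and ER gene counts per 1000 matrix counts (right) in DKO, SMKO, ECKO and CTRL; bars are means, whiskers SD over 3 libraries and digits the replicate. The matrix sum is highest in SMKO 2 (193411 CPM) and above CTRL in all DKO libraries, while the ER gene sum of DKO 3 lies within CTRL.

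Across the 12 libraries, the log2 level of each member was correlated with the log2 matrix load and with log10 depth, 20 relations in all, with p-values from 100000 permutations and Benjamini-Hochberg adjustment; none had an adjusted p under 0.05. Libraries share their scaling in both measures, and matrix genes are part of the scaled total. With the matrix load all 10 coefficients were positive, with a median r of 0.63, 0.46 without the 2 libraries farthest from the median load (SMKO 2 and DKO 1), and 0.63 on deviations from group means. Calr had the highest (Pearson r = 0.742, permutation p = 0.00527, adjusted 0.0693; Spearman rho = 0.797, permutation p = 0.00272, adjusted 0.0544), with r = 0.778 without those 2 libraries and 0.688 within groups. Canx had r = 0.494, which became 0.004 without them and was 0.769 on deviations from group means over all 12, so the pooled relation rested on those 2 libraries. Xbp1 had the lowest (r = 0.174) and had its highest coefficient with depth (r = 0.745, permutation p = 0.00733, adjusted 0.0693; rho = 0.559, adjusted 0.206), which did not pass the adjustment, at 0.530 without SMKO 3 and CTRL 3 and 0.778 within groups.

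Between members, levels were mostly positively correlated over the 12 libraries. As a description, the 45 pairs had a median Pearson r of 0.54, ranging from -0.17 (Xbp1 with Atf4) to 0.87 (Calr with Atf4), and 43 were positive; on deviations from group means the median was 0.53 and 41 were positive. Hsp90b1 with Pdia6 (0.85) and Hsp90b1 with Pdia4 (0.83) came next after Calr with Atf4. Over the same 12 libraries, the genes outside the 10 whose log2 levels were most like Hspa5 were Slc38a2 (r = 0.884), Cald1 (0.881), Phf23 (0.872), Ddost (0.870, a subunit of the N-glycosylation enzyme of the ER), Hsp90ab1 (0.870, a cytosolic HSP90), Fbn1 (0.865, fibrillin-1), Emp2 (0.857), Kpna2 (0.856), Loxl2 (0.846, a lysyl oxidase) and Niban2 (0.844).

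Members with and without the ERSE shown above had medians close to each other in DKO against CTRL, and the difference was not tested. The 5 members with it (Hspa5, Hsp90b1, Pdia6, Calr and Canx) had a median log2 fold change of 0.37, with 4 above 0, and the 5 others, among them Hyou1 for which no promoter was read, had a median of 0.43, with 4 above 0. The element was found in 30 genes outside the members, of which 4 passed the count filter. These were Creld2, Dnajc3, Hnrnpa3 and Syvn1, with log2 fold changes of 0.20 ± 0.33, 0.31 ± 0.28, -0.25 ± 0.25 and 0.23 ± 0.42 in DKO against CTRL, and none was called in the 5 pairs of groups compared. Of all genes, 0% to 0.572% were called in these pairs.

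The rest of the ER pathway, taken from lists of 6 other functions, had no called gene in the 5 pairs of groups compared, the smooth muscle average or the interaction. Of all genes, 0% to 0.572% were called in these comparisons. In DKO against CTRL, 51.5% of all genes were above 0 and 11.6% had an unadjusted p under 0.05. Beside these shares, other ER folding factors were above 0 for 30 of 38 tested genes (median 0.26), and 4 passed that p. Examples are the disulfide oxidase Qsox1 (1.10 ± 0.34, adjusted p = 0.157), the reticulocalbin Rcn3 (0.75 ± 0.26, adjusted p = 0.222) and the BiP co-chaperone Dnajb11 (0.75 ± 0.32, adjusted p = 0.337). Targets of ATF4 and CHOP were above 0 for 19 of 21 (median 0.37), nearest to the threshold being Nupr1, a stress-induced nuclear protein (1.20 ± 0.29, adjusted p = 0.0542), the tRNA ligase Aars (1.32 ± 0.38, adjusted p = 0.122) and Atf5 (1.12 ± 0.35, adjusted p = 0.175). Sensors and regulators of the response were above 0 for 12 of 18 (median 0.15), ER-associated degradation for 15 of 26 (0.06), translocation and N-glycosylation for 18 of 31 (0.12) and ER-to-Golgi transport for 19 of 35 (0.05). In the degradation and glycosylation lists, the genes nearest to the threshold were below 0, with Erlec1, a lectin of ER-associated degradation, at -0.63 ± 0.30 and Magt1, an oligosaccharyltransferase subunit, at -0.91 ± 0.28 (adjusted p = 0.406 and 0.150).

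Collagen-specific ER enzymes, which hydroxylate and fold procollagen, were above 0 for 14 of 15 tested genes in DKO against CTRL (median 0.66), beside 51.5% of all genes. Of the 15, 9 had an unadjusted p under 0.05, beside 11.6% of all genes, and none was called, beside 0.492%. They were led by Serpinh1, the collagen chaperone HSP47 (0.92 ± 0.29, adjusted p = 0.168), and Fkbp10 (0.87 ± 0.28, adjusted p = 0.175). Their sum was 2367 ± 72.5 CPM in DKO and 1528 ± 124 CPM in CTRL (SD, n = 3 each), and every DKO library (2304 to 2446.5 CPM) lay above every CTRL library (1409.5 to 1657 CPM), whereas the sums of the 10 members overlapped. Cytosolic and mitochondrial chaperones, the list set beside the ER members as a contrast, were above 0 for 19 of 30 (median 0.22), with none called. Their sum was 4721 ± 64.4 CPM in DKO and 3832 ± 78.8 CPM in CTRL, without overlap between the groups. Their nearest genes were the small heat shock protein Cryab (1.44 ± 0.44), Dnajb4 (-0.86 ± 0.29), Cct8 (0.70 ± 0.25) and Hsp90aa1 (0.59 ± 0.24), with adjusted p from 0.197 to 0.298.

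**Figure D4:**
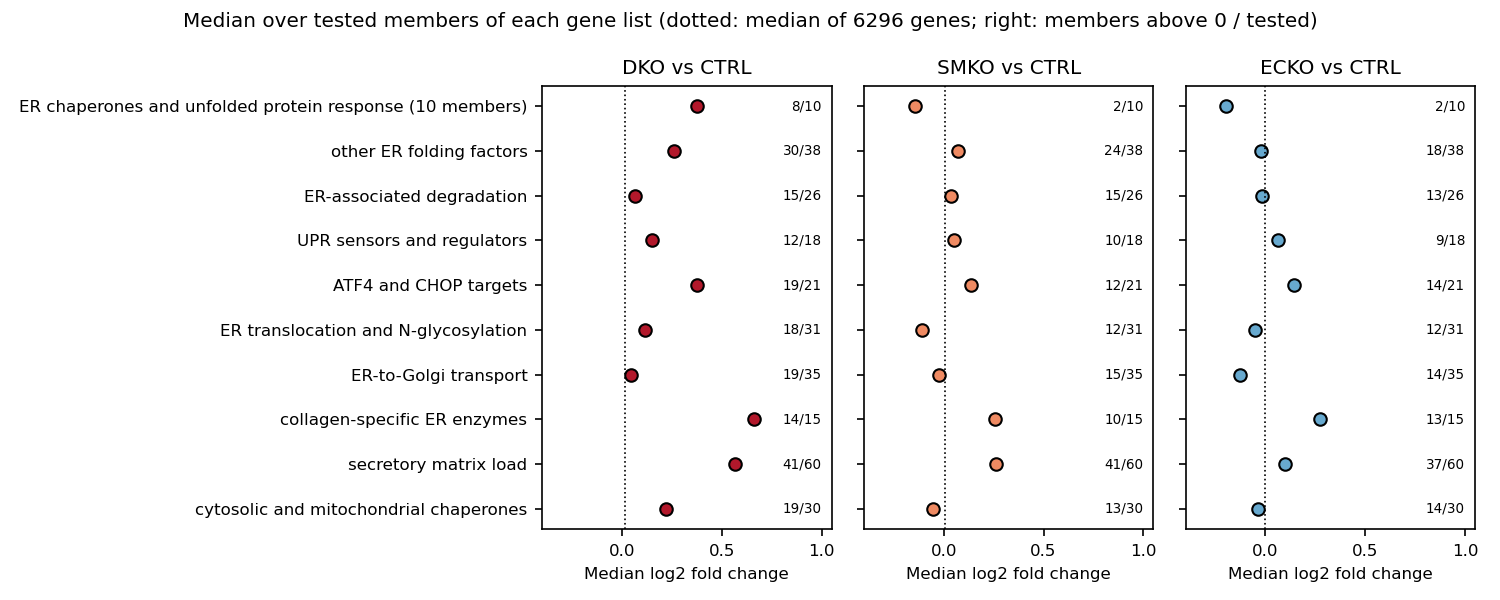
Median log2 fold change over the tested members of 10 gene lists (horizontal axis) in DKO, SMKO and ECKO against CTRL; the dotted line is the median of all 6296 genes and the fractions give members above 0 out of those tested. In DKO the collagen-specific ER enzymes (median 0.66) and matrix genes (0.56) lie right of the 10 ER genes (0.38), and in SMKO and ECKO the 10 ER genes lie left of the dotted line (-0.14 and -0.20).

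Markers of other cells moved with some of these values. SMKO 2 was high in Hspa5, Hsp90b1, Pdia4, Canx and Atf4 in scaled counts, though not above all of CTRL in TPM. On the same scaled counts it also had the highest sum of 12 macrophage markers, at 4427 CPM, against 1008 to 2429 CPM in the other 11 libraries. It was also the highest in the sum of 8 melanocyte markers, by less, at 1022 CPM, with DKO 1 next at 917 CPM. In ECKO the melanocyte sum was 70.0 to 110.2 CPM, against 223 to 702 CPM in CTRL. In DKO against CTRL, 7 of 13 tested endothelial markers were below 0 and 6 above it (median -0.08). At an unadjusted p under 0.05, 5 were lower and 1 higher, beside 11.6% of all genes in either direction. They were led by Prox1 (-2.13 ± 0.54, adjusted p = 0.0669) and Kdr (-1.49 ± 0.41, adjusted p = 0.0935). The endothelial sum was 1595 ± 137 CPM in DKO and 1713 ± 243 CPM in CTRL. Blood markers summed to 250 ± 165 CPM in DKO and 1416 ± 1752 CPM in CTRL, the highest of these 6 being CTRL 3. Plasma cells, which are rich in ER chaperones, were close to undetected: of 10 plasma and B cell markers 1 passed the count filter, Sdc1, which other cells also express, and Mzb1 had 0 counts in every library. The part of macrophages, melanocytes, endothelial cells and blood in the levels of the 10 members was not tested.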

How the data were processed

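RNA-seq of laser-captured aortic valve leaflets was deposited as 1 table. Its columns are, per the file headers, total counts (whole numbers) and TPM of the 12 libraries, with a fold change and a p-value for DKO against each other group; these deposited values are given once, in the closing observations, and no source used here names the test behind them. The TPM scaling was done by the authors; TPM served here only to order genes and to check which groups of a member overlapped. GRCm39 is the genome build named in the submitters' processing notes; no source used here names the aligner, the counter or the annotation. The Nextera XT kit, named in the labels' protocols, keeps no strand.

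The 10 members and 17 further gene lists were chosen with earlier results of these data known, so no pattern here is independent of them. Genes with too few counts were removed with edgeR's filterByExpr at its minimum count of 10, with the smallest group of 3, which left 6296 genes holding 93.1% of counts. The deposited counts, with TMM factors, entered 1 model of the 4 group means over 12 libraries (8 residual degrees of freedom, robust quasi-likelihood fit, edgeR 4.0.16 in R 4.3.3), and p-values were adjusted by Benjamini-Hochberg over all tested genes; the common biological coefficient of variation was 0.246. A call is an adjusted p under 0.05. Adjusted p-values come from edgeR where no tool is named. The standard error was taken as the size of the log2 fold change divided by the root of the F statistic. CPM are counts per 1000000 of the scaled total, and log2 CPM used a prior count of 2. Totals of 74827 to 615665 counts limit the precision of low genes: 1 count in SMKO 3 is worth 13.8 CPM, and a count of 0 was read as up to 3 counts, which covers counting error only. Named genes were the 10 members, the called genes of each list and up to 4 genes with the smallest p per list in DKO against CTRL and in the smooth muscle average, and the 10 genes most like Hspa5. The pipeline was tested on simulated counts. Alternatives were RLE factors, no count filter, no mitochondrially encoded genes, depth as a covariate, a replicate block, fits of only the groups compared, DESeq2 1.42.0, limma-voom (limma 3.58.1) and each library left out; leaving out CTRL 3 and SMKO 3 together was chosen after seeing the data.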

Additional observations from a re-analysis of the deposited data

Results flagged for a closer look

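Pdia6 was picked out because its response to one deletion differed with the other. Both single-deletion groups lay below CTRL in every library in scaled counts, and DKO lay above both single-deletion groups in every library. By genotype label, each deletion thus went with lower scaled counts without the other deletion and with higher scaled counts alongside it. That pattern was the rule by which Pdia6 was picked out, so it is no separate support. Separation from CTRL in either direction was found in 10.5% of genes for SMKO and 11.8% for ECKO. Separation of DKO was found in 9.55% of genes against SMKO and 18.9% against ECKO. The share of genes with all these separations was not computed. The interaction term DKO - SMKO - ECKO + CTRL was 1.29 ± 0.37 on the log2 scale (edgeR, adjusted p = 0.611), so it did not pass the adjustment over 6296 genes. In TPM neither the separation of the single deletions from CTRL nor that of DKO from ECKO was present, and that of DKO from SMKO was. Pdia6 overlaps Atp6v1c2 on the opposite strand, and the part of that gene's reads was not tested.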

How the results depend on the processing

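The finding that no member was called held under all alternatives run, except for Hyou1 in DKO against SMKO, which made 1 member called without the count filter (log2 fold change 1.92) and without SMKO 2 (2.25), so the count of members called ran from 0 to 1 over the libraries left out. Counts of all genes called moved far more. In the order DKO, SMKO and ECKO against CTRL, DKO against SMKO, DKO against ECKO, smooth muscle average, interaction and F test, they were 31, 0, 0, 0, 36, 13, 2 and 19 in the fit reported and 158, 8, 15, 32, 173, 149, 28 and 218 without the count filter. Over the 12 libraries left out in turn they ranged from 4 to 139, 0 to 1, 0 to 2, 0 to 128, 0 to 150, 5 to 93, 0 to 62 and 3 to 150. The highest came without SMKO 2, except in the smooth muscle average (without SMKO 1), in ECKO against CTRL (without DKO 1) and in SMKO against CTRL (without DKO 1, DKO 3 or ECKO 1); the lowest in DKO against CTRL came without CTRL 2. DESeq2 called 2 genes in ECKO against CTRL, 3 in DKO against SMKO, 44 in the smooth muscle average, 1 in the interaction and 37 in the F test. Limma-voom called 12 in DKO against ECKO, 8 in the smooth muscle average, 1 in the interaction and 11 in the F test. With log10 depth as a covariate 16 were called in DKO against CTRL, 10 in DKO against ECKO, 6 in the smooth muscle average and 9 in the F test. Fits of only the groups compared called 99 in DKO against CTRL, 3 in ECKO against CTRL and 172 in DKO against ECKO. Without both CTRL 3 and SMKO 3, 1 gene was called in ECKO against CTRL, 69 in DKO against ECKO, 38 in the smooth muscle average and 1 in the interaction. The cause of these shifts was not tested.

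The replicate block called 50 genes in DKO against CTRL, beside 31 in the fit reported, which has no block, and no member. Same-numbered libraries deviated together only weakly, with mean correlations of 0.02, 0.05 and 0.10 over the pairs of numbers 1, 2 and 3 and a lowest of -0.14. Yet among libraries of the other groups, 10 of 12 libraries correlated best with one of their own number. This count comes from the data and not from the design, and the count to be expected without any pairing was not computed. The labels do not say what a number shares, and a factor shared by number was not tested.

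Signs that turned were all of uncalled members. Atf4 in SMKO against CTRL was 0.025 by DESeq2, 0.013 in the fit of only these groups and 0.14 without CTRL 3 and SMKO 3, and its range over libraries left out was -0.74 to 0.59. Ddit3 in DKO against SMKO was 0.028 by limma-voom and 0.045 with the block, range -0.31 to 0.39. Xbp1 in DKO against SMKO was 0.0068 without the filter and 0.023 with the block, range -0.19 to 0.18, and in the smooth muscle average -0.0077 without the filter and -0.00073 with the block, range -0.094 to 0.10. Canx in DKO against SMKO was 0.012 without the filter, range -0.21 to 0.25. Without CTRL 3 and SMKO 3, Calr was 0.067 against CTRL in SMKO (range -0.21 to 0.15) and 0.079 in ECKO (range -0.089 to 0.082), and Atf4 in ECKO was 0.065, range -0.40 to 0.068. Over libraries left out, the sign also turned in the smooth muscle average for Hsp90b1 (-0.15 to 0.18), Pdia4 (-0.14 to 0.74), Canx (-0.068 to 0.17) and Atf4 (-0.081 to 0.58), and in the interaction for Ddit3 (-0.22 to 0.64) and Atf4 (-0.016 to 1.31). It turned in DKO against CTRL for Pdia4 (-0.067 to 0.55) and Xbp1 (-0.31 to 0.016), in DKO against ECKO for Xbp1 (-0.011 to 0.22), and in DKO against SMKO for Pdia4 (-0.31 to 1.43) and Atf4 (-0.16 to 1.16). In SMKO against CTRL it turned for Pdia4 (-1.18 to 0.57), Canx (-0.47 to 0.0023), Hspa5 (-0.22 to 0.39) and Xbp1 (-0.33 to 0.055), and in ECKO against CTRL for Ddit3 (-0.66 to 0.20) and Hyou1 (-0.062 to 0.95). The shallow libraries limit the low genes most: Hyou1 and Ddit3 had at most 39 and 16 counts in any library.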

Other observations

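In the authors' deposited table, the fold changes of the 10 members from DKO against the other groups were positive for 8 members against CTRL, 8 against SMKO and 10 against ECKO. The p-values of that table, of unstated adjustment, were under 0.05 for 1 member against CTRL, 2 against SMKO and 1 against ECKO. The shares of all its genes with a positive fold change or such a p-value were not computed. In the edgeR fit reported here, 11.6%, 6.29% and 10.8% of genes had an unadjusted p under 0.05 in these comparisons. In the authors' deposited table the smallest p-values were 0.0476 against CTRL, 0.000289 against SMKO and 0.00249 against ECKO.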
